A study of Mus musculus with 12 samples.

Results

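Tat, Tdo2, Hpd, Hal, Sds, Fah, Hgd, Aass and Gnmt encode liver enzymes that break down amino acids or use up their products. They were chosen by name, as the genes of the deposited expression table that carry these symbols, and they are 9 of the 47069 genes listed. The libraries are polyadenylated RNA from mice whose hepatocytes lack Cdk1, the kinase that drives entry into mitosis, and from control mice. There are 12 libraries, 3 in each of 4 groups, all from mice at postnatal day 14. The control mice are labelled WT, and the labels give neither a strain nor alleles for them. The Cdk1 Liv-/- mice carry Cdk1 flox/flox together with Albumin-Cre, and each genotype was measured both in isolated hepatocytes and in whole liver. The labels name no treatment and give a standard diet for all mice. The Albumin promoter is active in the hepatocyte lineage from before birth, so the deletion was not timed and cells of other lineages keep Cdk1. Isolated hepatocytes are a preparation of dissociated tissue, and whole liver holds all of its cell types.

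The liver is the main organ in which amino acids are degraded, with their carbon passed to glucose, ketone bodies or the citric acid cycle and their nitrogen to the urea cycle. Many of the enzymes are controlled by glucocorticoids, glucagon and the supply of their substrate, and Tat and Tdo2 are known as genes that come on around birth as hepatocytes mature. Along the lobule, Hal and Sds are known as genes of the periportal hepatocytes.

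Cdk1 itself was measured first, as a check of the labels. In isolated hepatocytes, replicates 1 to 3 held 27.9, 20.4 and 28.2 FPKM (fragments per kilobase of transcript, scaled to the mapped reads of the library) of Cdk1 in WT and 9.68, 11.8 and 6.87 FPKM in Cdk1 Liv-/-. In whole liver they held 25.3, 22.7 and 21.5 FPKM in WT and 11.7, 12.07 and 14.2 FPKM in Cdk1 Liv-/-. The genotypes did not overlap in either compartment, with a log2 fold change of -1.40 in hepatocytes and -0.85 in whole liver (adjusted p = 0.0148 and 0.00353 from limma). A pair of libraries stood apart from their groups. Cdk1 Liv-/- whole liver replicate 3 had 158 FPKM of Xist, and the Y-linked Ddx3y, Eif2s3y, Kdm5d and Uty were listed at 0, where the study's methods speak of male mice. In every other library Xist was at most 0.14 FPKM and these 4 genes summed to at least 48.35 FPKM. WT hepatocytes replicate 3 lay at -8.01 on the first principal component of all genes tested, which holds 33.9% of the variance, between the other hepatocyte libraries (-86.9 to -59.2) and WT whole liver (8.91 to 27.9). Its Kupffer cell and macrophage markers were also the highest among hepatocyte libraries, with a sum of 689 FPKM where the others held 149 to 374 FPKM. Counts and calls of the enzymes that change without either library are given both ways.

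All 9 enzymes were well covered. By the spacing of the lowest FPKM values, 1 FPKM on 1 kb of transcript stood for 34.7 to 49.8 reads, depending on the library. At that spacing 31.9% to 41.8% of the low values of short transcripts lay within 0.05 reads of a whole number, where the median over other spacings was 6.74% to 7.72%. The fewest reads estimated behind an enzyme were 580 for Sds in Cdk1 Liv-/- whole liver replicate 1, and every other enzyme had at least 5082 in each library.

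Hpd was the most abundant enzyme in each of the 4 groups, by FPKM, which is per length of transcript. In WT hepatocytes it was at 749 ± 10.0 FPKM (SD, n = 3), and its libraries lay above all those of the next enzyme, Gnmt (377 ± 76.5 FPKM). Fah (364 ± 21.9 FPKM) overlapped with Gnmt, and below them followed Tat (297 ± 17.4), Tdo2 (294 ± 23.1) and Hgd (275 ± 5.42 FPKM), where Tat overlapped with Tdo2 and Tdo2 with Hgd. Sds (123 ± 25.9), Hal (88.3 ± 1.47) and Aass (44.45 ± 1.66 FPKM) closed the order with no overlap between neighbours. In Cdk1 Liv-/- hepatocytes the order was Hpd (777 ± 99.9), Gnmt (529 ± 146), Tat (515 ± 219), Tdo2 (347 ± 112), Hgd (334 ± 39.0), Fah (302 ± 23.5), Sds (115 ± 47.6), Aass (91.4 ± 5.51) and Hal (52.6 ± 12.9 FPKM). There the neighbours overlapped from Gnmt down to Fah, and again Sds with Aass, while Hpd did not overlap with Gnmt, Fah with Sds or Aass with Hal. Neighbours are set by the means, and Tat in replicate 1 (766 FPKM) lay above Hpd in replicates 2 and 3 (702 and 739 FPKM). WT whole liver ran from Hpd (906 ± 43.9) through Gnmt (475 ± 97.6), Fah (409 ± 10.2), Hgd (314 ± 17.6), Tdo2 (280.4 ± 36.8), Tat (196 ± 54.5), Sds (107 ± 41.9) and Hal (79.8 ± 10.8) to Aass (45.2 ± 7.14 FPKM). Gnmt overlapped with Fah, Hgd with Tdo2, Tat with Sds, and Sds with Hal. In Cdk1 Liv-/- whole liver the order was Hpd (434 ± 87.6), Fah (276 ± 28.8), Gnmt (275 ± 40.7), Hgd (251 ± 32.9), Tat (173 ± 68.4), Tdo2 (107.5 ± 7.07), Hal (42.1 ± 14.4), Aass (33.3 ± 3.26) and Sds (28.1 ± 24.8 FPKM). Here the neighbours from Fah down to Tdo2 overlapped, as did those from Hal to Sds, and Gnmt, Tdo2 and Sds held lower places than in WT whole liver. Summed, the 9 enzymes took 0.231% to 0.254% of all FPKM in Cdk1 Liv-/- whole liver. The share was 0.362% to 0.429% in WT whole liver, 0.379% to 0.397% in WT hepatocytes and 0.383% to 0.541% in Cdk1 Liv-/- hepatocytes.

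**Figure D1:**
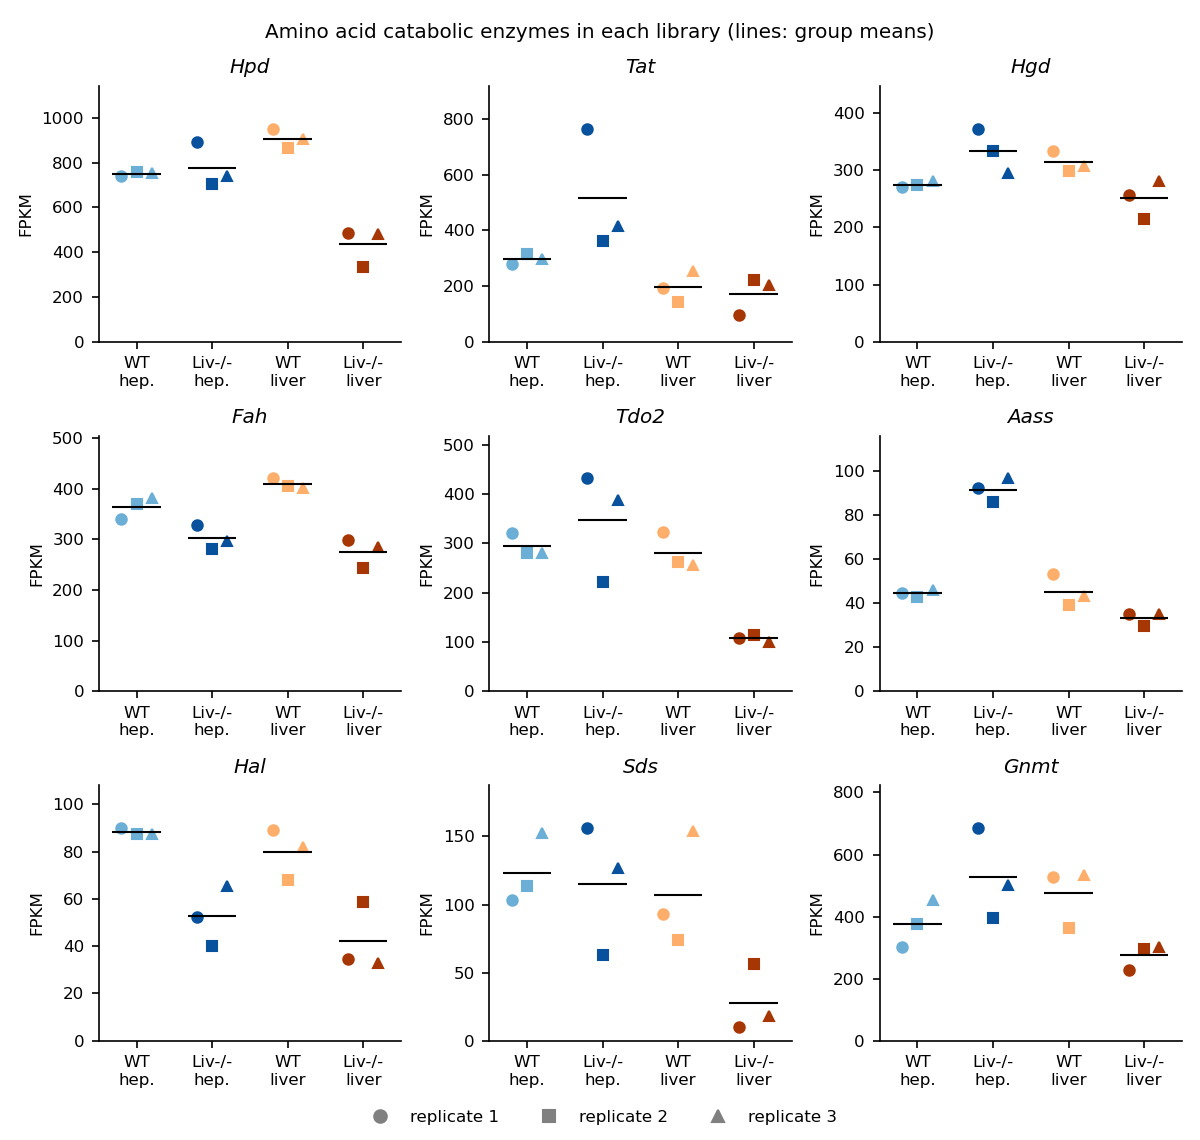
FPKM of each of the 9 enzymes (vertical axes) in each of the 12 libraries by group (horizontal axes), with points for libraries and lines for group means. Tdo2 and Hpd are lower in every Cdk1 Liv-/- whole liver library (100.1 to 114 FPKM and 333 to 486 FPKM) than in every other library, and Aass is higher in every Cdk1 Liv-/- hepatocyte library (85.6 to 96.6 FPKM) than in every other.

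Promoters of 8 of the 9 enzymes were found in the RefSeq table for GRCm38.p6, the genome build of the deposited values; Sds was not found. The 250 bases upstream of the start are shown 5′ to 3′ on the strand of the gene for Tdo2, Hpd, Aass and Hal. Tdo2 and Hpd were lower in Cdk1 Liv-/- whole liver, Aass was higher in Cdk1 Liv-/- hepatocytes, and Hal was lower in both compartments. These are examples and not a ranking. Fah, also lower in all Cdk1 Liv-/- libraries of both compartments, is not shown. Capitals mark letters that match a searched motif on either strand.
Tdo2: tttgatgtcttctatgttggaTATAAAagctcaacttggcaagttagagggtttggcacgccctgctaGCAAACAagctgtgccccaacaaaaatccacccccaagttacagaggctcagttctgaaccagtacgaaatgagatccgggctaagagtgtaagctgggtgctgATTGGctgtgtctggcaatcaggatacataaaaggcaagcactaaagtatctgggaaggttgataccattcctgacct
Hpd: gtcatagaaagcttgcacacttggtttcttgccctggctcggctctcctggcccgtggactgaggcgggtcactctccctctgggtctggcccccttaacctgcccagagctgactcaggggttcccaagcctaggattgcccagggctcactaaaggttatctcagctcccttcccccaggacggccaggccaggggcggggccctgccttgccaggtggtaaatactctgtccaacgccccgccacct
Aass: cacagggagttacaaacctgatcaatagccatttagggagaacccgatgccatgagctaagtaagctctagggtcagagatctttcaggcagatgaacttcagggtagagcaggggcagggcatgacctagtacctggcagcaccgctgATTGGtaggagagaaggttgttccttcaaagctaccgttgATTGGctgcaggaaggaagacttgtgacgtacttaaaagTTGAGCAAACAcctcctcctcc
Hal: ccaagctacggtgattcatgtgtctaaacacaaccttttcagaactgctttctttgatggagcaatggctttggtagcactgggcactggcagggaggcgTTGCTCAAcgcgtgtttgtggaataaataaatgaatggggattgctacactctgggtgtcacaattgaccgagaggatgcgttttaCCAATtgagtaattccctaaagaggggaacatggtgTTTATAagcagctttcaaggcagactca
The Tdo2 stretch is chr3:81975729-81975978 on the minus strand, the Hpd stretch chr5:123182724-123182973 on the minus strand, the Aass stretch chr6:23132987-23133236 on the minus strand and the Hal stretch chr10:93488518-93488767 on the plus strand. Searched were 9 motifs, each on both strands. Among 32851 promoters of the same length, TATAAA is held by 12.4%, and among the enzymes by Tdo2, Hal and Hgd. In Hal it lies at -28 to -23 from the start, and in Tdo2 at -229 to -224. CCAAT is held by 33.85% of promoters and by Tat, Tdo2, Hal, Hgd, Aass and Gnmt. TTGCNNAA, the letters of a C/EBP motif, is held by 9.56% of promoters and by Hal, Hgd and Aass. TGTTTGC, a FOXA motif, is held by 4.30% of promoters and by Tdo2 and Aass. In Aass, TTGAGCAA at -22 to -15 and GCAAACA at -18 to -12 overlap by 4 bases. The other 5 motifs are in none of the 8 stretches. Among all promoters, GTTAAT of HNF1 is held by 6.43%, the FOXA letters TGTTTAC by 3.17%, the glucocorticoid receptor letters AGAACA by 16.1%, the cAMP response element TGACGTCA by 1.55% and the HNF4 letters CAAAGTCCA by 0.384%. Hpd and Fah hold none of the 9 motifs. The stretch of Hpd has 62.8% G and C, that of Hal 45.6%, and the median over all promoters is 52.4%. These matches are a description of letters.

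The genotypes were compared within each compartment, which asks how the enzymes differ when hepatocytes cannot divide, in the hepatocytes themselves and in the whole organ. A log2 fold change is that of FPKM plus 0.5, Cdk1 Liv-/- over WT. The test was limma over the 17386 genes with a mean of at least 0.1 FPKM, among them all 9 enzymes, and calls needed both an adjusted p no higher than 0.1 and a log2 fold change of 1 or more in either direction. The p-values set each difference against the spread between these libraries, an estimate that limma draws in part from the other genes. In bulk RNA, fewer hepatocytes and less of an RNA in each hepatocyte cannot be told apart.

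In whole liver the log2 fold change was below 0 for all 9 enzymes, as for 26.9% of all genes tested. The median was -0.78 for the enzymes and 0.18 for all genes. The adjusted p was passed downward by 8 enzymes, all but Tat, where 7.53% of all genes passed it downward and 38.0% upward. That count was 5 without WT replicate 1, 5 without WT replicate 3, and 7 without each of the other whole liver libraries in turn, replicate 3 of Cdk1 Liv-/- among them. Tdo2, Hpd and Sds were called lower, where 1.00% of genes were. In 8 enzymes, again all but Tat, no Cdk1 Liv-/- library reached the lowest WT library, and the same held for 8.94% of genes. Dividing FPKM by median-ratio size factors moved the median of all genes from 0.18 to 0.01, and the shares past the adjusted p from 38.0% higher and 7.53% lower to 17.9% higher and 16.4% lower. The median of the enzymes was -0.78 without scaling, -0.997 with size factors and -0.74 with every library brought to the same sum. Scaled to hepatocyte markers it was -0.37. That scaling put the median of all genes at 0.51, with 71.5% of genes past the adjusted p upward and 2.45% downward. All 9 enzymes stayed below 0 except under the scaling to hepatocyte markers, where Tat was at 0.17 and Hgd at 0.08. There 4 enzymes passed the adjusted p downward. Relative to the median of all genes, the median of the enzymes was -0.96 without scaling, and -1.01, -0.95 and -0.88 under these scalings in turn. All 9 enzymes lay below that median each time. A scaling moves all genes of a library nearly alike, so values relative to that median hardly can change and are no test of it.

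In isolated hepatocytes the log2 fold changes went both ways, 6 above 0 and 3 below, with a median of 0.18 where that of all genes was 0.05. Aass passed the adjusted p upward, where 12.1% of genes did, and Hal passed it downward, where 6.61% did. Aass was called higher, as 4.20% of genes were. By limma 0 enzymes were called lower, where 2.17% of genes were, and 5 of the 9 had an unadjusted p under 0.05 in either direction, where 28.4% of genes did. The 3 Cdk1 Liv-/- libraries lay above the 3 WT libraries for Tat, Hgd and Aass, where 20.6% of genes did so, and below them for Hal and Fah, where 13.4% did. These counts were not tested against the shares of all genes and are no result about the enzymes as a group. Scaled to hepatocyte markers, the median of all genes moved from 0.05 to 0.21, with 25.6% of genes past the adjusted p upward and 4.26% downward, and Tat, Hgd and Gnmt joined Aass past the adjusted p upward.

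**Figure D2:**
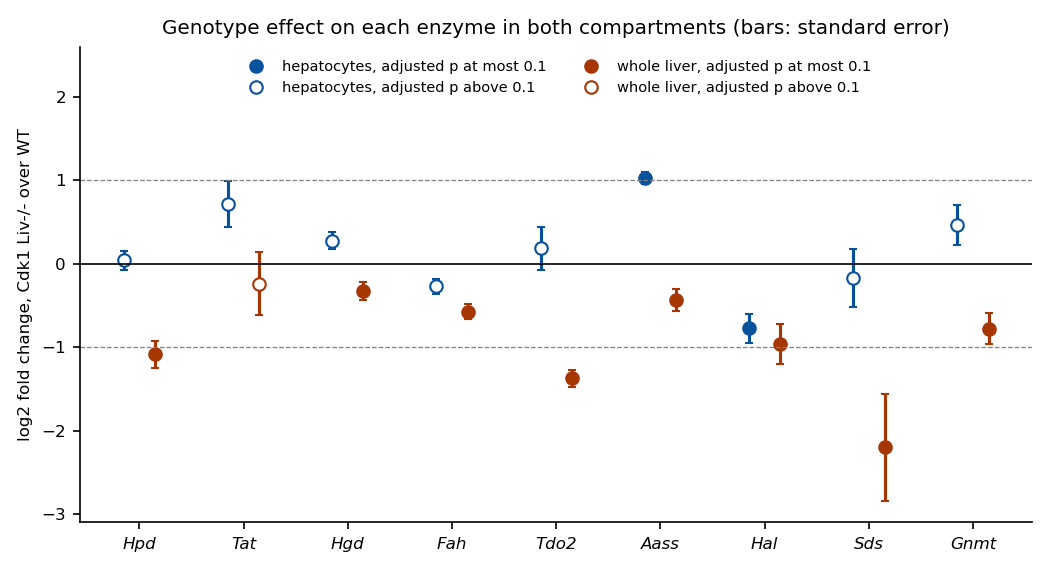
Log2 fold change of Cdk1 Liv-/- over WT (vertical axis) of each enzyme in hepatocytes and in whole liver, with bars for the standard error, filled points for an adjusted p of at most 0.1 and dashed lines at the fold threshold. Whole liver values run from -2.20 for Sds to -0.24 for Tat and hepatocyte values from -0.77 for Hal to 1.03 for Aass; scaled to hepatocyte markers, Tat and Hgd in whole liver and Sds in hepatocytes are above 0, and with size factors Hpd in hepatocytes is below 0.

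Tyrosine is broken down in sequence by 4 of the enzymes. Hpd, 4-hydroxyphenylpyruvate dioxygenase (ENSMUSG00000029445, chr5:123171807-123182727), turns the keto acid of tyrosine into homogentisate. Its FPKM in replicates 1 to 3 was 952, 864 and 904 in WT whole liver and 486, 333 and 483 in Cdk1 Liv-/- whole liver. Every Cdk1 Liv-/- library was well below every WT library, with replicate 2 the lowest, and the mean was 47.9% of that in WT. This is a log2 fold change of -1.08 (adjusted p = 0.00690, with a standard error of 0.16), past both thresholds. Without Cdk1 Liv-/- replicate 2 it was -0.90 (adjusted p = 0.00243), and scaled to hepatocyte markers -0.68 (adjusted p = 0.00659), both short of the fold threshold. In hepatocytes Hpd was at 738, 757 and 754 FPKM in WT and at 891, 702 and 739 FPKM in Cdk1 Liv-/-. The WT libraries lay inside the range of the Cdk1 Liv-/- libraries, and the log2 fold change was 0.04 (adjusted p = 0.830). It was below 0 without Cdk1 Liv-/- replicate 1 (-0.06) and with size factors (-0.03).

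Tat, tyrosine aminotransferase (ENSMUSG00000001670, chr8:109990437-109999803), removes the amino group of tyrosine in the step before Hpd. In hepatocytes it was at 280.1, 315 and 296 FPKM in WT and at 766, 361 and 417 FPKM in Cdk1 Liv-/-. All Cdk1 Liv-/- libraries were above all WT libraries and replicate 1 was far above the others, so that the SD of the group, 219 FPKM, was 42.6% of its mean. The log2 fold change of 0.71 (standard error 0.28) did not pass the test (adjusted p = 0.154), and without replicate 1 of Cdk1 Liv-/- it was 0.39 (adjusted p = 0.103). In whole liver Tat was at 192, 144 and 252 FPKM in WT and at 94.45, 220.3 and 204 FPKM in Cdk1 Liv-/-. The groups overlapped, with Cdk1 Liv-/- replicate 1 the lowest of the 6 libraries. Tat differed by -0.24 on the log2 scale (adjusted p = 0.651), and without that replicate 0.15.

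Hgd, homogentisate dioxygenase (ENSMUSG00000022821, chr16:37580153-37632020), opens the ring of homogentisate, the product of Hpd. It ranged from 299.85 to 334 FPKM in WT whole liver and from 216 to 281 FPKM in Cdk1 Liv-/- whole liver, with no overlap, and the log2 fold change was -0.33 (adjusted p = 0.0626). The adjusted p was above 0.1 without WT replicate 1 (0.180), 2 (0.111) or 3 (0.129) and without Cdk1 Liv-/- replicate 1 (0.105). In hepatocytes its range was 270.1 to 281 FPKM in WT and 295 to 373 FPKM in Cdk1 Liv-/-, again with no overlap but the other way (log2 fold change 0.27, adjusted p = 0.140). Without Cdk1 Liv-/- replicate 3 the hepatocyte difference was 0.36 (adjusted p = 0.0849). Fah, fumarylacetoacetate hydrolase (ENSMUSG00000030630, chr7:84585159-84606722), carries out the last step, which yields fumarate and acetoacetate. Fah fell in whole liver from a range of 401.5 to 421 FPKM to 244 to 299 FPKM, a log2 fold change of -0.57 (adjusted p = 0.00743) and 67.4% of the WT mean. Scaled to hepatocyte markers Fah was at -0.17 and missed the test (adjusted p = 0.107). In hepatocytes the Cdk1 Liv-/- libraries (282 to 328 FPKM) were also below the WT libraries (339.5 to 382 FPKM), at -0.27 (adjusted p = 0.120). Among the 4 enzymes of this route, Fah alone was lower in all Cdk1 Liv-/- libraries of both compartments.

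Tdo2, tryptophan 2,3-dioxygenase (ENSMUSG00000028011, chr3:81957090-81976202), opens the indole ring of tryptophan and starts the kynurenine pathway. In whole liver it was at 323, 262 and 257 FPKM in WT and at 108, 114 and 100.1 FPKM in Cdk1 Liv-/-. The Cdk1 Liv-/- libraries were close to each other and far below the WT libraries, at 38.3% of the WT mean. Tdo2 fell with a log2 fold change of -1.37 (adjusted p = 0.00113, with a standard error of 0.11), and it was called without each of the 6 libraries in turn. Scaled to hepatocyte markers it was -0.97 (adjusted p = 0.000955), just short of the fold threshold. In hepatocytes Tdo2 was at 321, 280.45 and 281 FPKM in WT and at 432, 221 and 388 FPKM in Cdk1 Liv-/-. Replicate 2 of Cdk1 Liv-/- was the lowest of the 6 libraries and replicates 1 and 3 were the highest, so the groups overlapped (log2 fold change 0.18, adjusted p = 0.673). Without replicate 2 the difference was 0.48 (adjusted p = 0.0599), and without replicate 1 it was -0.0024. The minus-strand stretch printed for Tdo2 starts from a RefSeq start that lies inside the GENCODE span of the gene.

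Aass, aminoadipate-semialdehyde synthase (ENSMUSG00000029695, chr6:23072173-23132986), joins lysine to 2-oxoglutarate and splits the product, the first steps of lysine breakdown in mitochondria. In hepatocytes it was at 44.5, 42.75 and 46.1 FPKM in WT and at 91.9, 85.6 and 96.6 FPKM in Cdk1 Liv-/-. The libraries of each group were tight and the groups far apart, with the Cdk1 Liv-/- mean at 206% of WT. Aass rose with a log2 fold change of 1.03 (adjusted p = 0.00163, with a standard error of 0.07), close to the fold threshold. Without Cdk1 Liv-/- replicate 3 the log2 fold change was 0.99 (adjusted p = 0.00866), so that 0 enzymes were called by limma, and with size factors it was 0.96 (adjusted p = 0.00261). In whole liver Aass was at 53.0, 39.1 and 43.4 FPKM in WT and at 35.2, 29.5 and 35.1 FPKM in Cdk1 Liv-/-. All Cdk1 Liv-/- libraries were below all WT libraries, by a smaller margin, and the log2 fold change was -0.43 (adjusted p = 0.0513). The adjusted p was 0.111 without WT replicate 1, 0.106 without WT replicate 3 and 0.121 without Cdk1 Liv-/- replicate 2, and scaled to hepatocyte markers the whole liver difference was -0.03 (adjusted p = 0.834).

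Hal, histidine ammonia-lyase (ENSMUSG00000020017, chr10:93488768-93519304), removes ammonia from histidine to give urocanate. In hepatocytes it was at 90.0, 87.45 and 87.5 FPKM in WT and at 52.2, 39.9 and 65.6 FPKM in Cdk1 Liv-/-. WT libraries were nearly equal, and all Cdk1 Liv-/- libraries were below them and spread more. The log2 fold change was -0.77 (adjusted p = 0.0426, with a standard error of 0.17). The adjusted p was above 0.1 without WT replicate 1 (0.127), WT replicate 3 (0.104) or Cdk1 Liv-/- replicate 1 (0.106), and when genes of low values were kept (0.109). Whole liver held 89.3, 68.0 and 82.0 FPKM of Hal in WT and 34.75, 58.7 and 32.9 FPKM in Cdk1 Liv-/-. The groups did not overlap, with Cdk1 Liv-/- replicate 2 nearest to WT. The log2 fold change was -0.96 (adjusted p = 0.0293, with a standard error of 0.24), short of the fold threshold. It was past both thresholds without WT replicate 2 (-1.07, adjusted p = 0.0568), without Cdk1 Liv-/- replicate 2 (-1.22, adjusted p = 0.00607) and with size factors (-1.17, adjusted p = 0.0208). In the main fits Hal was the only one of the 9 enzymes to pass the adjusted p in the same direction in both compartments. Fah did so as well with equal sums, with the spread shared over 12 libraries and with the 2-sample test (adjusted p in hepatocytes of 0.0807, 0.0557 and 0.0847).

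Sds, serine dehydratase (ENSMUSG00000029597, chr5:120476526-120483932), turns serine into pyruvate and ammonia. Whole liver held 92.75, 73.95 and 154 FPKM of Sds in WT and 10.1, 56.3 and 17.85 FPKM in Cdk1 Liv-/-. The groups did not overlap, but both were wide, and Cdk1 Liv-/- replicate 2 lay near WT replicate 2. The log2 fold change of -2.20 was the largest in size among the enzymes and also had the largest standard error (0.64, adjusted p = 0.0449). The adjusted p was above 0.1 without WT replicate 1 (0.112), WT replicate 3 (0.126) or Cdk1 Liv-/- replicate 3 (0.118), and when genes of low values were kept (0.106). In hepatocytes Sds was at 103, 114 and 152 FPKM in WT and at 156, 63.1 and 127 FPKM in Cdk1 Liv-/-. The groups overlapped, with the lowest and the highest library both in Cdk1 Liv-/- (log2 fold change -0.17, adjusted p = 0.784). The difference was above 0 without Cdk1 Liv-/- replicate 2 (0.21) and when scaled to hepatocyte markers (0.05).

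Gnmt, glycine N-methyltransferase (ENSMUSG00000002769, chr17:46725664-46729168), moves the methyl group of S-adenosylmethionine, the activated form of methionine, to glycine. It fell in whole liver from 363 to 535 FPKM in WT to 229 to 303 FPKM in Cdk1 Liv-/-, with no overlap and a mean at 57.9% of WT. The log2 fold change was -0.78 (adjusted p = 0.0277), and scaled to hepatocyte markers -0.37 (adjusted p = 0.111). In hepatocytes the ranges, 301 to 454 FPKM in WT and 397 to 686 FPKM in Cdk1 Liv-/-, overlapped (log2 fold change 0.47, adjusted p = 0.251). The hepatocyte value of Gnmt was 0.26 to 0.66 with 1 library left out, the lowest without Cdk1 Liv-/- replicate 1 and the highest without replicate 2.

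Whether the genotype difference itself differed between the compartments was tested as an interaction over all 12 libraries. It was above 0, that is higher in hepatocytes than in whole liver, for all 9 enzymes, with a median of 1.13 where that of all genes was -0.11. The adjusted p was passed by 5 enzymes, all above 0, where 2.35% of genes passed it in that direction. The difference was 1.56 for Tdo2, 1.46 for Aass and 1.13 for Hpd, with standard errors of 0.29, 0.16 and 0.20 (adjusted p = 0.0362, 0.00642 and 0.0350). The hepatocyte libraries of Tdo2 and Hpd overlapped between the genotypes, while those of Aass did not. Gnmt (1.24, adjusted p = 0.0674) and Hgd (0.60, adjusted p = 0.0630) also passed. Sds had the largest difference, 2.03, but also the largest standard error, 0.77, and did not pass (adjusted p = 0.145). Tat (0.95), Fah (0.31) and Hal (0.18) did not pass either, at adjusted p of 0.273, 0.181 and 0.772. Aass passed in each of the 12 fits that left out 1 library. The count of 5 was 1, Aass, without WT whole liver replicate 1, where 0.201% of all genes passed upward, Tdo2 was at 1.45 (adjusted p = 0.110) and Hpd at 1.09 (adjusted p = 0.104), and Hgd and Gnmt missed it too (0.164 and 0.165). It was 3 without WT hepatocytes replicate 1 (1.66% of all genes) and 3 without WT whole liver replicate 3 (0.984%), where Hgd and Gnmt were above 0.1 (adjusted p of 0.104 and 0.111, and of 0.113 and 0.124). Hgd was also above it without WT whole liver replicate 2 (0.111), Gnmt without Cdk1 Liv-/- hepatocytes replicate 3 (0.105) or Cdk1 Liv-/- whole liver replicate 1 (0.103), and both without Cdk1 Liv-/- whole liver replicate 2 (0.112 and 0.117), where Sds passed (2.70, adjusted p = 0.0739). Without both libraries that stand apart, the count was 3, and 0.673% of all genes passed upward, with Tdo2 at 1.48 (adjusted p = 0.101) and Gnmt at 1.46 (adjusted p = 0.105). Under size factors, equal sums and hepatocyte marker scaling the count was 5 and all 9 differences were above 0.

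The same libraries can be read the other way, isolated hepatocytes against whole liver within a genotype, which shares every library with the comparisons above. In WT, 0 of the 9 enzymes were called by limma in either direction, where 0.0403% of genes were called higher and 0.426% lower in hepatocytes, and 4 enzymes had an unadjusted p under 0.05 in either direction, where 18.8% of genes did. The shares of all genes called rest on single libraries: without WT hepatocytes replicate 3 they were 0.316% higher and 2.71% lower, and without each other library in turn 1 to 4 genes were called higher and 0 to 30 lower. The enzymes called numbered 0 by limma in each of these fits, though without WT hepatocytes replicate 3 Hpd (-0.28, adjusted p = 0.0709) and Fah (-0.21, adjusted p = 0.0999) passed the adjusted p. The log2 differences of the enzymes lay between -0.33 for Gnmt and 0.64 for Tat, with a median of -0.01 where that of all genes was -0.10. In Cdk1 Liv-/- all 9 were higher in hepatocytes than in whole liver, with a median of 0.91 where that of all genes was -0.19. Tat (1.59, adjusted p = 0.0292), Tdo2 (1.63, adjusted p = 0.00527), Sds (2.28, adjusted p = 0.0387) and Aass (1.45, adjusted p = 0.000616) were called higher, where 1.51% of genes were. Sds missed the adjusted p without Cdk1 Liv-/- hepatocytes replicate 1 (0.107) or 3 (0.111) or Cdk1 Liv-/- whole liver replicate 3 (0.114), and Gnmt (0.91) was past both thresholds without Cdk1 Liv-/- hepatocytes replicate 2 (1.10, adjusted p = 0.0182). With size factors Gnmt (1.19) and Hpd (1.13) were past both as well. Isolation of the cells and the makeup of the tissue cannot be told apart in these comparisons.

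Within groups the enzymes did not all move together. Over the 12 libraries, which fall into groups, 33 of the 36 pairs of enzymes had a Pearson correlation of log2 FPKM above 0, with a median of 0.65. Of the deviations from the group means, 26 of 36 pairs were above 0 and the median was 0.37. Hpd was closest to Fah (0.90) and Hgd (0.85) in these deviations, and Tat to Gnmt (0.81) and Sds (0.80). Hal went with Sds (0.80) and against Hgd (-0.61). The plot of FPKM by library shows the same: Cdk1 Liv-/- whole liver replicate 2 was the highest of its group for Tat, Tdo2, Hal and Sds and the lowest for Hpd, Fah, Hgd and Aass. In Cdk1 Liv-/- hepatocytes, replicate 1 was the highest for Tat, Tdo2, Hpd, Sds, Fah, Hgd and Gnmt. The points share libraries and group means, and these values are a description.

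Among 12273 other genes with a mean of at least 1 FPKM, the 5 whose log2 FPKM ran most like the mean of the enzymes over the 12 libraries included Upp2 (Pearson r 0.95, Spearman 0.85), Cyp2f2 (0.95 and 0.92), Ass1 (0.94 and 0.92) and Asl (0.93 and 0.85). Upp2 was at 12.5, 9.03 and 10.3 FPKM in Cdk1 Liv-/- whole liver and at 60.6 to 126 FPKM elsewhere, the same break as in Tdo2. Least like the enzymes were Dtx4 (-0.95 and -0.84), Nostrin (-0.95 and -0.92), Casp8 (-0.95 and -0.88), Eif2s2 (-0.94 and -0.92) and Hmces (-0.94 and -0.76). Since the libraries fall into 4 groups, these correlations follow the group differences.

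The other genes of amino acid breakdown were taken from 8 lists by pathway, 73 genes besides the 9 enzymes, of which 71 were tested (Ido1 and Tdh were not). In whole liver 61 of the 71 were below 0, with a median of -0.38, and 43 passed the adjusted p downward and 3 upward, where 7.53% and 38.0% of all genes did. The downward count was 33 to 43 with each library left out in turn, and the upward count was 5 without Cdk1 Liv-/- replicate 2. In hepatocytes 45 were below 0 and 26 above, with a median of -0.15, and 19 passed the adjusted p downward and 9 upward, where 6.61% and 12.1% of all genes did. The downward count was 11 without WT replicate 1 and 10 without WT replicate 2. The interaction was above 0 in 55 of 71, with a median of 0.27, and 15 passed above 0, where 2.35% of all genes did. That count was 9 without WT hepatocytes replicate 3. Leaving out WT replicate 1, 2 or 3 of whole liver gave 2, 6 or 7.

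Around Tdo2 and Aass, neighbouring steps gave these values. Afmid, the step after Tdo2, was at -1.05 in whole liver (adjusted p = 0.00190) and stood lower than in WT in each Cdk1 Liv-/- library there. In hepatocytes Afmid was at -0.53 (adjusted p = 0.0415), which rose above 0.1 without WT replicate 2 (0.109) or 3 (0.109). Further along the kynurenine pathway, Acmsd rose in hepatocytes from 1.78, 2.44 and 3.20 FPKM to 10.95, 12.7 and 9.91 FPKM, a log2 fold change of 1.99 (adjusted p = 0.00418), and Kynu rose by 0.71 (adjusted p = 0.0247). Beside Aass in the lysine pathway, Aldh7a1 rose in hepatocytes by 0.88 (adjusted p = 0.00682) and was at 0.13 in whole liver (adjusted p = 0.460). Cth, which forms cysteine downstream of methionine, was lower in both compartments, at -1.37 in hepatocytes (adjusted p = 0.00346) and -1.71 in whole liver (adjusted p = 0.0136). Agxt, which uses serine and glyoxylate, was at -1.13 and -0.98 (adjusted p = 0.00688 and 0.00316).

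The transaminases of alanine went opposite ways in whole liver. Gpt was at 82.1, 62.4 and 67.1 FPKM in WT whole liver and at 27.1, 14.4 and 20.98 FPKM in Cdk1 Liv-/- whole liver, a log2 fold change of -1.77 (adjusted p = 0.00518), and its interaction was 2.59 (adjusted p = 0.0121). In hepatocytes Gpt was higher, at 0.82 (adjusted p = 0.0659). There the adjusted p was above 0.1 without WT replicate 1 (0.153), 2 (0.145) or 3 (0.144) and without Cdk1 Liv-/- replicate 1 (0.137) or 3 (0.175). Gpt2 was higher in both compartments, with 13.99, 12.3 and 16.9 FPKM in WT whole liver and 42.6, 56.7 and 42.98 FPKM in Cdk1 Liv-/- whole liver. Its log2 fold change was 1.68 in whole liver and 2.34 in hepatocytes (adjusted p = 0.00205 and 0.000409). Oat and Prodh, which feed ornithine and proline into glutamate, had the largest hepatocyte values of the lists, 2.80 and 2.62 (adjusted p = 0.00457 and 0.0101), well above that of Aass.

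**Figure D3:**
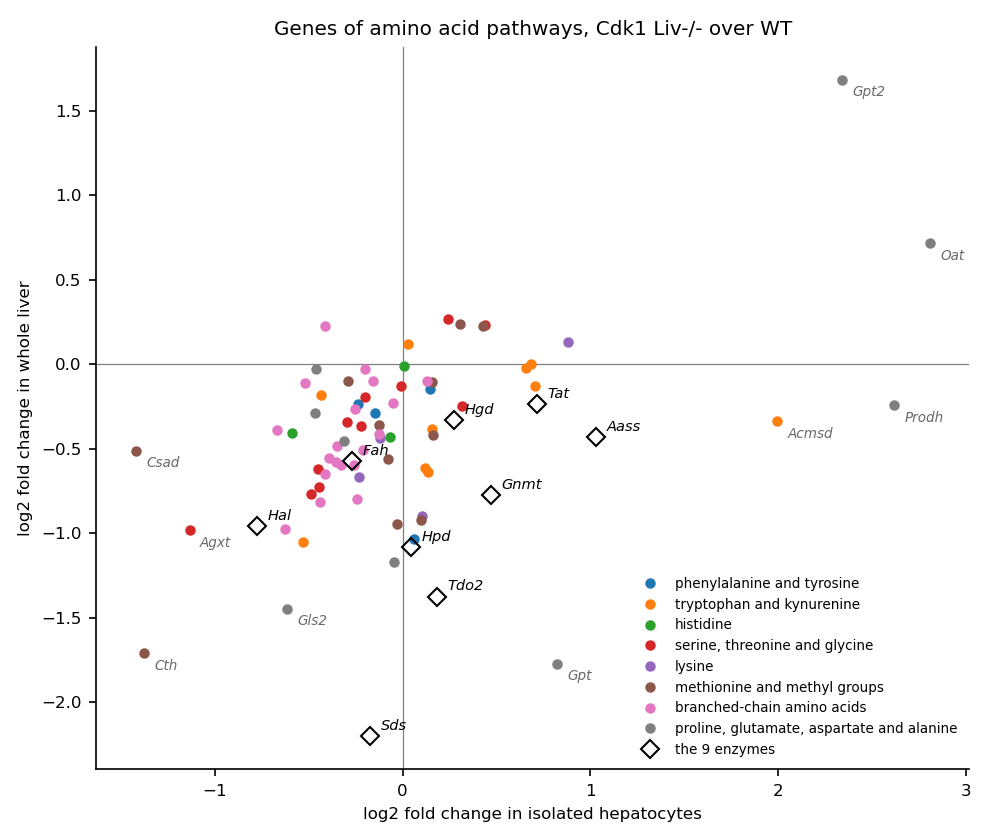
Log2 fold change of Cdk1 Liv-/- over WT in hepatocytes (horizontal axis) and in whole liver (vertical axis) of the 9 enzymes (diamonds) and 71 other genes of amino acid pathways (points, coloured by list). Hpd lies at 0.04 and -1.08 and Tdo2 at 0.18 and -1.37, while Gpt2, at 2.34 and 1.68, lies opposite Cth, at -1.37 and -1.71.

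Marker lists were summed in each library to show what else moved. Hepatocyte markers, 10 of 11 listed and with Alb the most abundant, summed to 107978 to 111092 FPKM in WT whole liver and 88670.3 to 95534.7 FPKM in Cdk1 Liv-/- whole liver. In hepatocytes they summed to 104949 to 118602 FPKM in WT and 75391.1 to 84236.2 FPKM in Cdk1 Liv-/-, so that the sum was lower in both compartments, where Hpd and Tdo2 were lower in whole liver. Alb carries this sum and did not pass the adjusted p by itself (0.376 in hepatocytes and 0.242 in whole liver). Of the 10 markers 4 were above 0 in hepatocytes and 3 in whole liver, with Cps1 at 0.66 and -0.95 and Ass1 at 0.47 and -0.83. The 10 periportal markers, Hal and Sds among them and with Cps1 and Ass1 also on the hepatocyte list, summed to 3805 to 4734 FPKM in WT whole liver and 2776 to 3413 FPKM in Cdk1 Liv-/-, with Pck1 or Ass1 the most abundant. In hepatocytes their sum was 4411 to 4711 FPKM in WT and 4947 to 6166 FPKM in Cdk1 Liv-/-. Gene by gene, 9 of the 10 were below 0 in whole liver, with a median of -0.94. There 8 passed the adjusted p downward, where 7.53% of all genes did, and Hsd17b13 went the other way, at 1.31. In hepatocytes 5 were below 0, with a median of -0.04. The interaction of these markers was above 0 in 8, with a median of 0.97, and 6 passed above 0, where 2.35% of all genes did. The 10 pericentral markers, with Cyp2e1 the most abundant, overlapped between the genotypes in both compartments, at 1510.5 to 2675 FPKM in WT and 1336 to 2116 FPKM in Cdk1 Liv-/- hepatocytes and at 2120.3 to 3177 FPKM in WT whole liver. In Cdk1 Liv-/- whole liver they summed to 2481, 511 and 2035 FPKM, where replicate 2, the lowest, is the library with the highest Sds and Hal of its group. Hepatocyte markers and periportal markers were above 0 in every library.

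Markers of other cells also moved in whole liver. The 10 stellate cell and fibroblast markers, with Col3a1 the most abundant there, summed to 464, 460.2 and 528 FPKM in WT and 942, 1182 and 879.6 FPKM in Cdk1 Liv-/-. The 6 cholangiocyte markers, with Spp1 the most abundant, summed to 45.9 to 62.2 FPKM in WT and 139 to 270.4 FPKM in Cdk1 Liv-/-, and the 10 neutrophil and monocyte markers, with S100a9 the most abundant, to 45.2 to 72.2 FPKM and 92.6 to 313 FPKM. The 11 Kupffer cell and macrophage markers summed to 539 to 600.1 FPKM and 688 to 945 FPKM, with Cd5l or Clec4f the most abundant. The 9 sinusoidal endothelial markers (152 to 208 and 192 to 235 FPKM) and the 8 erythroid markers (1103 to 2170 and 1165 to 1769 FPKM) overlapped between genotypes in whole liver. In the hepatocyte preparations the endothelial markers were lower in Cdk1 Liv-/- (48.4 to 77.5 FPKM) than in WT (108 to 301 FPKM), and so were the erythroid markers (24.5 to 99.9 and 107 to 581 FPKM), beside the values of Aass and Hal there. The cholangiocyte markers were higher in these preparations in Cdk1 Liv-/- (66.8 to 124 FPKM) than in WT (14.6 to 30.1 FPKM). Spp1 carries the cholangiocyte sums of both compartments, and in these preparations it was at 63.0 to 119.9 FPKM in Cdk1 Liv-/- and 13.5 to 28.7 FPKM in WT. All 5 cholangiocyte markers tested were above 0 there, and 4 passed the adjusted p upward, where 12.1% of all genes did. The Kupffer cell (149 to 228 and 203 to 689 FPKM), stellate cell (102 to 120.3 and 119 to 406 FPKM) and neutrophil and monocyte sums (11.1 to 21.5 and 12.2 to 49.4 FPKM) overlapped between the genotypes. The 10 markers of B, T and NK cells, with Cd79b or Nkg7 the most abundant, summed to less in Cdk1 Liv-/- than in WT in hepatocytes (1.23 to 1.70 and 2.77 to 8.43 FPKM), and in whole liver they were next to touching (9.06 to 16.96 and 16.97 to 17.5 FPKM). The 9 fetal liver genes, with H19 the most abundant, overlapped between genotypes in hepatocytes (2944 to 5469 FPKM in Cdk1 Liv-/- and 3997 to 5573 FPKM in WT) and in whole liver (3512 to 7668 and 3294 to 4346 FPKM). Of the 8 tested, Afp (2.55), Cd24a (1.38), Dlk1 (1.32) and Gpc3 (1.03) were called higher in whole liver, where 4.59% of genes were, and Gpc3 missed the fold threshold without WT replicate 3 (0.90) or Cdk1 Liv-/- replicate 3 (0.85). In hepatocytes Gpc3 (1.35, adjusted p = 0.0139) and Cd24a (1.71, adjusted p = 0.0589) were called higher, and the adjusted p of Cd24a was above 0.1 without WT replicate 1 (0.159) or 2 (0.133) or Cdk1 Liv-/- replicate 1 (0.147), 2 (0.123) or 3 (0.1499). Among these lists, Ly6g was listed at 0 in WT hepatocytes replicate 1 and Cdk1 Liv-/- hepatocytes replicates 2 and 3, and Cftr in WT hepatocytes replicate 2, as was Lin28b there and in the 3 WT whole liver libraries. The 10 acute phase genes, with Hp the most abundant, summed to 3300.1 to 3349 FPKM in WT whole liver and 6341 to 7362 FPKM in Cdk1 Liv-/- whole liver. In hepatocytes their sum was 3067 to 3380.4 FPKM in WT and 6687 to 9875 FPKM in Cdk1 Liv-/-. The scaling to hepatocyte markers divides each library by the geometric mean of its 10 markers. In whole liver 7 of these were below 0, Cps1 and Ass1 among them, so that this division raises the enzymes there. Ass1 was also among the 5 genes most like the enzymes. Under this scaling, Tdo2, Hpd, Sds and Hal passed the adjusted p in whole liver, at -0.97, -0.68, -1.80 and -0.55. Of these, Tdo2, Hpd and Hal were short of the fold threshold. Fah (-0.17), Gnmt (-0.37), Aass (-0.03), Hgd (0.08) and Tat (0.17) did not pass the adjusted p under that scaling. The part of the marker lists in the differences of the enzymes was not tested.

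**Figure D4:**
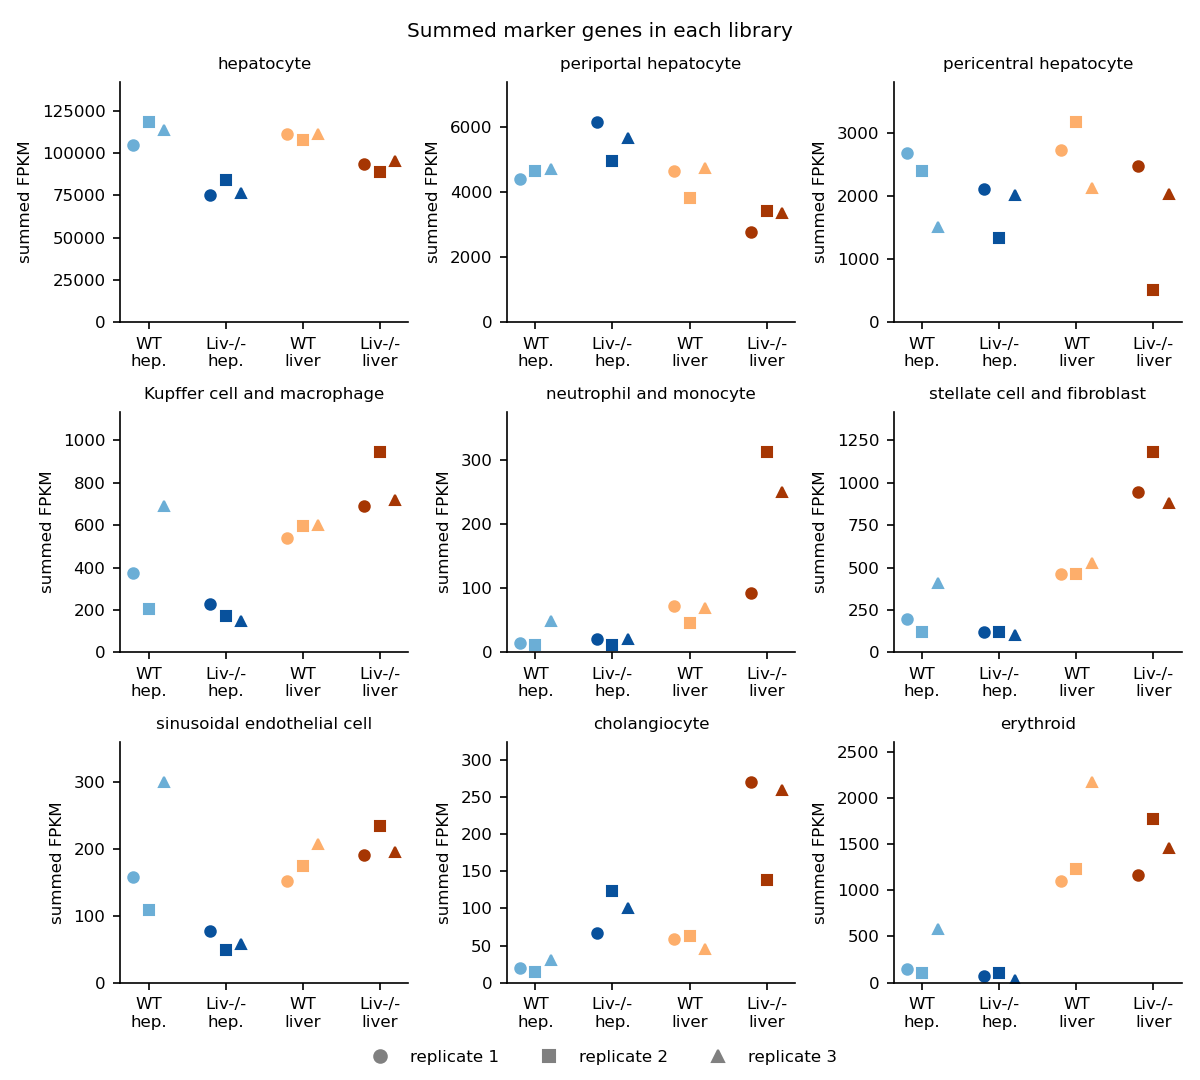
Summed FPKM of the genes of 9 marker lists (vertical axes) in each of the 12 libraries by group (horizontal axes), with points for libraries. WT hepatocytes replicate 3 has the highest sum among hepatocyte libraries for Kupffer cell, stellate cell, endothelial and erythroid markers (689, 406, 301 and 581 FPKM), and Cdk1 Liv-/- whole liver replicate 2 the lowest pericentral sum (511 FPKM).

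Genes that are known to act on these enzymes were read from further lists. Of all genes tested, 43.6% were below 0 in hepatocytes and 26.9% in whole liver, with medians of 0.05 and 0.18, which stand beside each list here. Of 12 liver transcription factors, 10 were above 0 in hepatocytes, with a median of 0.32, and 7 in whole liver, with a median of 0.05. The adjusted p was passed upward by 2 of them in hepatocytes, and by 2 upward and 2 downward in whole liver. Cebpa, whose product binds promoters of many liver enzymes, was at -0.51 in whole liver (adjusted p = 0.00896), while Onecut1 was highest there, at 0.78 (adjusted p = 0.00615). Foxa2 was at -0.60 (adjusted p = 0.0679), and Cebpb at 0.57 (adjusted p = 0.0685). Without Cdk1 Liv-/- replicate 2 Foxa2 was at -0.36 (adjusted p = 0.0213) and Cebpa at -0.48, and without WT replicate 1 Cebpb was at 0.37 (adjusted p = 0.0998). The adjusted p of Foxa2 was above 0.1 without WT replicate 1 (0.181), 2 (0.138) or 3 (0.133), and that of Cebpb without WT replicate 2 (0.124) or Cdk1 Liv-/- replicate 2 (0.146) or 3 (0.170). Of 8 hormone receptors and coregulators, 4 were above 0 in hepatocytes and 2 in whole liver, with medians of 0.03 and -0.18. Among them Hsd11b1, which makes active glucocorticoid inside the cell, was lowest in both compartments. It was at 361, 404 and 317 FPKM in WT hepatocytes and at 229.6, 149 and 164 FPKM in Cdk1 Liv-/- hepatocytes, a log2 fold change of -1.01 (adjusted p = 0.0222), and at -1.19 in whole liver (adjusted p = 0.00779). The medians of 8 glucocorticoid-responsive genes outside amino acid breakdown were 0.29 in hepatocytes and 0.14 in whole liver, and those of 7 genes responsive to glucagon and cAMP 0.02 and 0.03. Of 11 amino acid transporters, 8 were above 0 in hepatocytes and 4 in whole liver, with medians of 0.25 and -0.09.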

How the data were processed

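The authors sequenced polyadenylated RNA (TruSeq Stranded, single-end reads of 75 bp), aligned with STAR to mm10 and quantified with RSEM 1.2.31; the STAR version and annotation release are not given. The deposited values are FPKM, not normalized between libraries. Read counts are not in the table, so depth was estimated from the spacing of FPKM in transcripts of 300 to 900 bp. Genes averaging 0.1 FPKM or more were tested as log2(FPKM + 0.5) with limma 3.58.1 in R 4.3.3 (eBayes with a trend, two-sided, Benjamini-Hochberg over all 17386 genes), within each compartment, and for the interaction over all 12 libraries with 1 shared spread. The method was tested on simulated data, and the outcome of that test is not reported here. The 9 enzymes were named whatever their values, as were up to 2 genes at each end of a list, and 5 at each end by likeness. The enzymes and lists were chosen with earlier results of these data known. Positions are from GENCODE M21 and promoters from RefSeq. Python 3.11.15, pandas 2.3.3, numpy 2.4.6 and matplotlib 3.10.9 were used. Alternatives were another pseudocount, filter, scaling, threshold, test or spread, a replicate block, and leaving out each library.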

Additional observations from a re-analysis of the deposited data

Results flagged for a closer look

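The genotype difference differed between isolated hepatocytes and whole liver, by the interaction over all 12 libraries, in 5 enzymes. All 5 were above 0, where 2.35% of all genes passed in that direction. Without WT whole liver replicate 1 the count was 1 and the share of all genes 0.201%. The log2 difference, hepatocytes minus whole liver, was 1.56 for Tdo2, 1.46 for Aass, 1.24 for Gnmt, 1.13 for Hpd and 0.60 for Hgd (adjusted p of 0.0362, 0.00642, 0.0674, 0.0350 and 0.0630 from limma). For Aass and Hgd, the Cdk1 Liv-/- libraries were all above WT in hepatocytes and all below it in whole liver, while the hepatocyte libraries of Tdo2, Hpd and Gnmt overlapped. Aass alone passed without each of the 12 libraries in turn. The cause was not tested.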

How the results depend on the processing

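The genotype comparison in hepatocytes, that in whole liver and the interaction each have 162 log2 values of the enzymes under the alternatives. In hepatocytes 5 of them changed direction, and of the rest 2 lost and 1 gained a call. In whole liver these numbers were 3, 7 and 8. A call needs both thresholds, except under the alternative of the adjusted p alone. The gain in hepatocytes was Hal under that alternative. In whole liver Fah, Hgd, Aass and Gnmt gained a call only there. Of the interaction 0 changed direction, 15 fell short of the adjusted p and 1 came to pass it. The adjusted p alone was lost in 4 and gained in 10 values in hepatocytes, and lost in 17 in whole liver. The enzymes called higher in hepatocytes numbered 0 with size factors and 0 to 1 with each library left out, and those called lower 1 by the adjusted p alone. In whole liver those called lower numbered 8 by the adjusted p alone, 1 when scaled to hepatocyte markers, and 2 to 4 with each library left out. The enzymes past the interaction numbered 1 to 5 with each library left out, and 3 without both WT hepatocytes replicate 3 and Cdk1 Liv-/- whole liver replicate 3. The last and the scaling to hepatocyte markers were chosen after seeing the data.

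Directions changed as follows. In hepatocytes Hpd was -0.031 with size factors and Sds 0.049 when scaled to hepatocyte markers, while leaving out 1 library gave -0.0024 to 0.48 for Tdo2, -0.057 to 0.11 for Hpd and -0.44 to 0.21 for Sds. In whole liver Tat was 0.17 and Hgd 0.076 when scaled to hepatocyte markers, and Tat was -0.46 to 0.15 over the fits that left out 1 library. For WT hepatocytes minus WT whole liver, Aass was 0.11 with size factors, 0.026 with equal sums, and -0.11 to 0.11 with each library left out. The cause was not tested.

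Replicate numbers were not taken as pairs. Deviations of libraries with the same number had correlations of -0.32 to 0.24 over 18 pairs of libraries, pairs of WT with Cdk1 Liv-/- among them. Between hepatocytes and whole liver of the same genotype, replicates 1 to 3 had 0.05, 0.07 and 0.24 in WT. In Cdk1 Liv-/- they had -0.03, -0.06 and -0.12. With the replicate as a block, 1 enzyme was called higher in hepatocytes, 3 lower in whole liver and 5 passed the interaction. Where 1 library is left out, the rest of its group is assumed to vary like the others. Depth is known only as the estimate given for each library.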
